A study of Homo sapiens with 5 samples.

Results

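The regions described here are the recurrent G4 regions of human chromosomes 20 and 22 in C4-2 cells. The peaks of the 4 BG4 ChIP replicates were pooled, those sharing at least 1 bp were merged, and a merged region was kept when it held a peak of at least 2 replicates. This rule gave 6835 regions over all chromosomes and contigs, of which 398 lay on these chromosomes, 199 on chromosome 20 and 199 on chromosome 22. The study used BG4 ChIP-seq to map G4 structures in C4-2, an established line of androgen-independent prostate cancer cells, in 4 biological replicates. All 4 samples carry the same label, with no treatment and no second genotype, so the comparisons are between chromosomes, arms and replicates within one condition. An input library of sonicated chromatin was not analysed here. The chromatin was cross-linked with formaldehyde and sheared, and each replicate has its own peak list with positions on GRCh37 (hg19).

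A G-quadruplex (G4) is a fold of guanine-rich DNA in which runs of guanines stack into planar tetrads. BG4 is an antibody that binds folded G4s, and BG4 ChIP-seq pulls down the chromatin fragments that carry them, most often from open chromatin near the starts of active genes. Chromosome 22 is a short, gene-rich acrocentric chromosome whose short arm consists of repeats, while chromosome 20 has both arms assembled, with the genes packed more densely on the long arm. The part of the long arm of chromosome 22 nearest the centromere carries several large duplicated blocks, in which genes occur in near-identical copies.

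The deposited lists are on GRCh37 and no genome of that build was used here, so no sequence could be read under the peaks themselves. Promoters were instead matched by gene symbol in RefSeq (GRCh38.p14) for the genes of the study's own list whose 4 kb window held a region, and their GRCh38 positions cannot be laid on the GRCh37 peaks. Of the 30 windows with a region, 15 had a promoter of 250 bases before to 50 bases after a start site. No promoter was matched for the others. Among these were KCNG1 and TFAP2C on chromosome 20 and DDTL, WNT7B, UPK3A, LRP5L and H1F0 on chromosome 22. The motif shares therefore cover only part of the named genes. The motif searched was 4 runs of at least 3 G with loops of 1 to 7 bases of any kind, on both strands. It was found in 9 of the 19 promoters of these genes (47.4%), and in 25% of all 35116 promoters of the same length. All 9 lay on chromosome 22, where 9 of 14 promoters held it (64.3%), beside 33.5% of the 668 RefSeq promoters of that chromosome. On chromosome 20 it was found in 0 of 5, all of SCRT2, MACROD2 and SEL1L2, beside 26.3% of 921. Each start site counted as a promoter, so MACROD2, SEL1L2 and TSPO counted more than once. MACROD2 and SEL1L2 share the same region, and RIMBP3 and RIMBP3C are near-identical copies. These promoters therefore stand for fewer separate places than their number, and the difference between the chromosomes was not tested. Of the promoters of genes whose window held a peak of 1 replicate only, 4 of 11 held it (36.4%). The median GC content was 70.3% in the 19 promoters and 58.7% in all promoters, and the part of base composition in the motif share was not tested.

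The stretches below show what this motif looks like at genes of chromosome 22 whose window held a recurrent region. Each is written 5′ to 3′ on the strand of the gene with 20 bases on either side, and capitals mark the motif, as runs of G or, where the G runs lie on the opposite strand, as runs of C. TSPO encodes the translocator protein of the outer mitochondrial membrane, and its stretch at chr22:43151454-43151558 on the plus strand holds a pair of motifs. SLC5A1 encodes the sodium-glucose cotransporter of the intestine (chr22:32043159-32043224, plus strand). ZC3H7B encodes a zinc finger protein that binds RNA (chr22:41301393-41301458, plus strand). MICALL1 encodes a protein of endosome recycling (chr22:37906207-37906272, plus strand). LDOC1L, named RTL6 in RefSeq, derives from a retrotransposon (chr22:44498409-44498468, minus strand). CECR7 is a non-coding gene of the cat eye syndrome region (chr22:17036470-17036533, plus strand). On the strand of the gene, peak summits lay 638 to 674 bases after the window centre at CECR7 and 481 to 529 at MICALL1. At TSPO, SLC5A1 and LDOC1L they lay within 52 bases of the centre, and at ZC3H7B at 1, 6 and -385 bases. Whether the printed motifs lie under the peaks is therefore not known.
TSPO: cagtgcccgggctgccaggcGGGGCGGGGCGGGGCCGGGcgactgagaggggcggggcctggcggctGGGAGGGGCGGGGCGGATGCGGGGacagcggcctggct
SLC5A1: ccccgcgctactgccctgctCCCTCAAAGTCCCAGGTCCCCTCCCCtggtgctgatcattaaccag
ZC3H7B: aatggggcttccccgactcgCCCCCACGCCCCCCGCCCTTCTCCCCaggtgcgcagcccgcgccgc
MICALL1: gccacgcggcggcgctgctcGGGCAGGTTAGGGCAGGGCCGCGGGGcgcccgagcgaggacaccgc
LDOC1L: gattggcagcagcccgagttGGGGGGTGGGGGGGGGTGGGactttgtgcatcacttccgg
CECR7: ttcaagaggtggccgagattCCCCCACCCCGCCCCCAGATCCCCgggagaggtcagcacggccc

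RIMBP3, RIMBP3B and RIMBP3C are copies of a gene used in the testis and lie in duplicated blocks of chromosome 22. They are shown because reads from near-identical copies cannot always be placed. Peak summits lay 383 to 560 bases after the window centre at RIMBP3, 485 to 615 at RIMBP3B and 564 to 749 at RIMBP3C. Here too it is not known whether the motifs lie under the peaks. The promoters of RIMBP3 and RIMBP3C had the same base at 280 of 300 positions (93.3%), and their motif stretches were identical. They lie on the minus strand at chr22:18611950-18612020 and chr22:21551492-21551562 (GRCh38.p14). Position by position, without alignment, the promoter of RIMBP3B had the same base as RIMBP3 at 24.7% of positions. Without alignment this value cannot show how alike these copies are. The motif stretch of RIMBP3B at chr22:21383516-21383575 on the plus strand has another sequence.
RIMBP3: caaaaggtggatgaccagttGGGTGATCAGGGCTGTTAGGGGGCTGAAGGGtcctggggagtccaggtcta
RIMBP3C: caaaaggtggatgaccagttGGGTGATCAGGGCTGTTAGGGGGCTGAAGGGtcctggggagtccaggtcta
RIMBP3B: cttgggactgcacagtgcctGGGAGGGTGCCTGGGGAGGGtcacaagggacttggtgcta

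The 4 lists held 223, 183, 203 and 117 peaks on chromosome 20 for replicates 1 to 4, and 241, 178, 200 and 132 on chromosome 22. Replicate 4 had the fewest on both. Every peak had a q-value below 0.05. Read counts are not given in the lists, which leaves the depth unknown, and its part in the number of peaks per replicate was not tested. Merging gave 316 regions on chromosome 20, of which 199 (63.0%) were recurrent, and 318 on chromosome 22, of which 199 (62.6%) were recurrent. The other 117 and 119 regions held a peak of 1 replicate, most often replicate 1 (51 and 55). Each chromosome held 2.91% of all recurrent regions.

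The recurrent regions were denser on chromosome 22 than on chromosome 20. The number of regions was the same, but peaks spanned 35.0 Mb of chromosome 22 and 59.2 Mb of chromosome 20. The span of an arm was taken from its first to its last peak in any replicate, because centromeres and the short arm of chromosome 22 lack assembled sequence. Chromosome 22 then held 5.68 regions per Mb and chromosome 20 held 3.36, a ratio of 1.69. Measured from the first base of each chromosome to its last peak, the values were 3.89 and 3.16 per Mb and the ratio fell to 1.23, since no peak lay on the short arm of chromosome 22 (22p).

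Within chromosome 20 the regions lay mostly on the long arm. The short arm (20p) held 66 regions over 25.9 Mb, or 2.55 per Mb. The long arm (20q) held 133 over 33.3 Mb, or 4.0 per Mb, which is 1.57 times the short arm. The long arm of chromosome 22 (22q) held all 199 of its regions and was denser than either arm of chromosome 20.

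The same order of arms was seen in each replicate's own list. Peaks per Mb on 20p were 3.01, 2.04, 2.66 and 1.47 in replicates 1 to 4 (2.30 ± 0.682, SD, n = 4). On 20q they were 4.36, 3.91, 4.03 and 2.37 (3.67 ± 0.882, SD, n = 4). On 22q they were 6.88, 5.08, 5.71 and 3.77 (5.36 ± 1.3, SD, n = 4). The level of replicate 4 on 22q was below those of replicates 1 to 3 on 20q, so across replicates the arms overlapped, while within each replicate they did not change order. Peak density was higher on chromosome 22 than on all of chromosome 20 in 4 of 4 replicates, by 2.29 ± 0.582 peaks per Mb (SD; two-sided exact paired permutation test, p = 0.13, adjusted p = 0.5 over 8 comparisons). It was higher on 20q than on 20p in 4 of 4 replicates, by 1.37 ± 0.390 peaks per Mb (same exact test, p = 0.13, adjusted p = 0.5). With 4 pairs this test cannot give a smaller p, so it cannot reach 0.05.

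**Figure D1:**
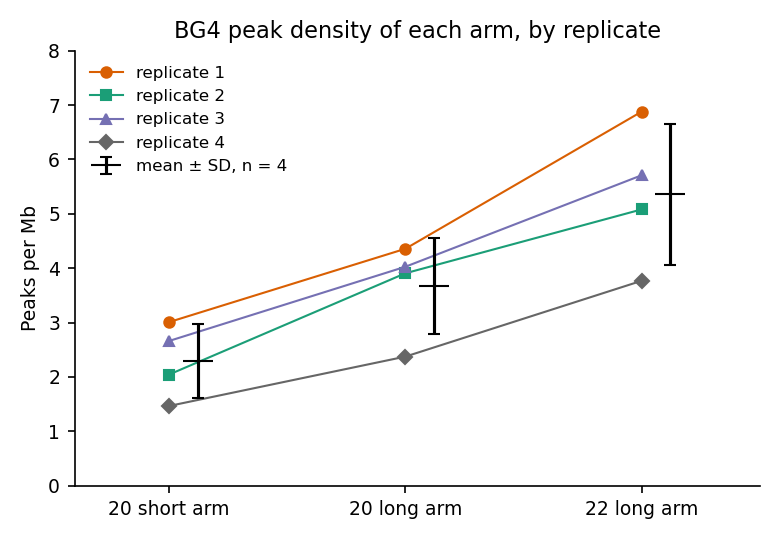
Peaks per Mb (y axis) on the short and long arm of chromosome 20 and the long arm of chromosome 22 (x axis), with one coloured line per replicate and, beside each arm, the mean and SD of the 4 replicates in black. Every line rises from 20p over 20q to 22q, with means of 2.30, 3.67 and 5.36 peaks per Mb, and replicate 4 is lowest on each arm.

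In bins of 1 Mb the regions were unevenly spread along each arm. On 20p, 10 of 27 bins held no recurrent region (37.0%), the median bin held 1, and the 5 fullest bins held 65.2% of the arm's regions. On 20q, 5 of 34 bins were empty (14.7%) and the median was 3, with 41.4% in the 5 fullest bins. On 22q, 4 of 36 bins were empty (11.1%) and the median was 4.5, with 37.2% in the 5 fullest bins. The short arm of chromosome 20 thus had the most empty bins and the largest share of its regions in a few of them. Bins with at least 10 regions numbered 2 on 20p, 3 on 20q and 6 on 22q, which makes 11 of the 126 such bins among all 3020 bins of the chromosomes.

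The fullest bins of chromosome 20 lay at both of its ends and in the first part of the long arm. The first Mb of 20p held 15 regions, of which 3 had a peak in all 4 replicates, with 15, 10, 14 and 8 peaks in replicates 1 to 4. The bin from 62 to 63 Mb, the last with a peak, held 16, again with 3 in all 4 replicates, and 17, 15, 14 and 8 peaks. These were the richest bins of their arms, and in both most regions were seen in 2 or 3 replicates. Their height depended on where the bins started. With bins moved by 0.5 Mb the fullest bin of chromosome 20 held 11 regions, while that of chromosome 22 held 18 either way. The bins from 32 to 33 Mb and 33 to 34 Mb, held 13 and 11 regions with 5 in all 4 replicates in each, while the 3 bins of 20q before them held 0, 4 and 3. The bin from 3 to 4 Mb on 20p held 10 regions, 6 of them in all 4 replicates, and 9, 10, 11 and 6 peaks.

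On chromosome 22 the fullest bins ran from 41 to 42 Mb and from 50 to 51 Mb, with 18 regions each. The first had 8 regions in all 4 replicates and 19, 13, 18 and 12 peaks in replicates 1 to 4. The second had 6 in all 4 replicates and 19, 17, 19 and 10 peaks. These were 2 of the 28 bins with at least 18 regions in the whole series. The bin from 21 to 22 Mb, where RIMBP3B and RIMBP3C lie, held 13 regions, 7 of them in all 4 replicates. Its peak counts of 13, 12, 11 and 11 were the most even over the replicates among the bins with at least 10 regions. The 10 Mb that end at the last peak held 72 regions (36.2% of the chromosome). The same length held 45 (22.6%) at the end of 20q and 41 (20.6%) from the first peak of 20p. These shares are not on an equal footing. The 10 Mb are a larger part of the 35.0 Mb spanned on chromosome 22 than of the 59.2 Mb on chromosome 20.

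**Figure D2:**
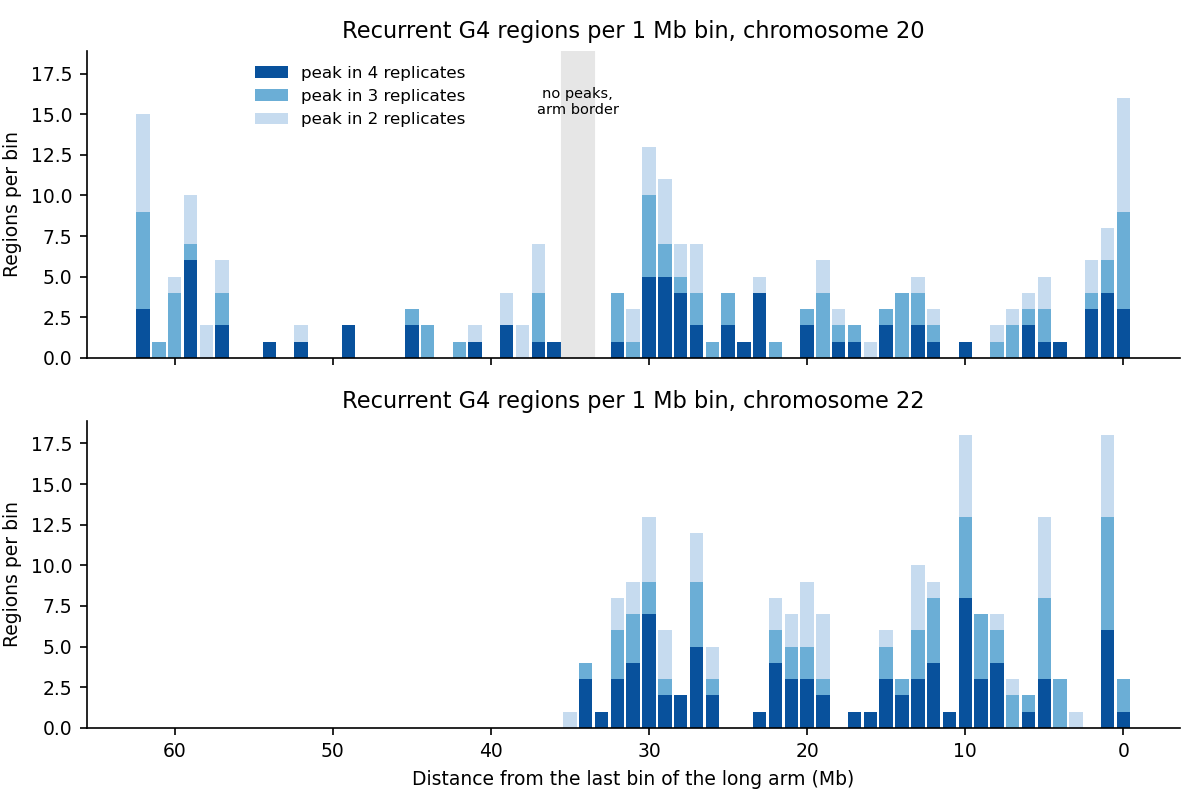
Recurrent G4 regions per 1 Mb bin (y axis) along chromosomes 20 and 22, plotted by distance in Mb from the last bin of the long arm (x axis), with colours for a peak in 2, 3 or 4 replicates and a grey band at the arm border of chromosome 20. Chromosome 20 peaks at its ends (15 and 16 regions) and in the first part of the long arm (13 and 11), while 22q has 6 bins with 10 or more regions and a highest value of 18 in a pair of bins.

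The replicates gave similar profiles along the bins. The correlation of peak counts per bin between replicates ranged from 0.864 to 0.929 over the 61 bins of chromosome 20 and from 0.886 to 0.940 over the 36 bins of chromosome 22 (Pearson's r). Bins share the gene content of the chromosome and are not independent, so these values are a description.

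Long stretches without a recurrent region were found on both chromosomes. On 20p, 3.57 Mb after the region at chr20:13975693-13976238 held none, with a single peak, in replicate 3. On 22q, 2.51 Mb after the region at chr22:25801218-25801614 held no peak in any replicate. The median distance between neighbouring regions was 112 kb on chromosome 20 and 69.0 kb on chromosome 22.

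Within 10 kb of another recurrent region lay 38 regions on chromosome 20 (19.1%, in 18 groups) and 36 on chromosome 22 (18.1%, in 15 groups). The same share over all recurrent regions of the series was not measured, so these values have no background. The shares of these chromosomes were close here but not under each alternative. Without replicate 1 they were 17.0% on chromosome 20 and 11.0% on chromosome 22, and with the 3000 strongest peaks of each replicate 9.09% and 2.13%. Where all 4 replicates were required they were 8.57% and 4.82%, while without replicate 2 chromosome 22 had the higher share, with 13.5% and 18.3%. Groups held at most 3 regions on chromosome 20 and at most 4 on chromosome 22. The group of 4 spanned 14.1 kb at chr22:46467177-46481236, with 2, 3, 4 and 2 of its regions detected in replicates 1 to 4 and 1 in all of them.

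The regions of both chromosomes were alike in width. The median was 515 bp on chromosome 20 (307 to 2007 bp) and 517 bp on chromosome 22 (298 to 1205 bp), and 519 bp elsewhere. Regions of 1 kb or more numbered 2 and 5. The widest lay at chr20:26188505-26190511, at the inner end of 20p, where fold enrichment was 7.16, 5.74, 8.54 and 5.13 in replicates 1 to 4, so the widest region was not among the strongest.

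Replicate support differed little between the chromosomes. On chromosome 20, 60 regions held a peak in 2 replicates, 69 in 3 and 70 in all 4, the last being 35.2% (exact binomial 95% interval 28.6% to 42.2%). On chromosome 22 the numbers were 53, 63 and 83, the last being 41.7% (34.8% to 48.9%). In the whole series 41.5% of the 6835 recurrent regions held a peak in all 4 replicates. The share on chromosome 22 was thus near the background, and the interval of chromosome 20 included it. By this share chromosome 20 ranked 23 and chromosome 22 ranked 11 of the 24 chromosomes. By arm the share was 33.3% on 20p, 36.1% on 20q and 41.7% on 22q. Regions are not replicates, so the intervals cover counting error only.

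The chromosomes differed most in replicate 4. Of the regions on chromosome 20, 86.4%, 82.9%, 84.9% and 50.8% held a peak in replicates 1 to 4. On chromosome 22 the shares were 92.0%, 78.9%, 83.4% and 60.8%, and elsewhere 90.6%, 78.6%, 83.5% and 58.1%. Replicate 4 was lowest everywhere and lower on chromosome 20 than on chromosome 22. The share was higher on chromosome 22 in 2 of 4 replicates, with a mean difference of 2.51 ± 6.45 percentage points (SD; two-sided exact paired permutation test, p = 0.625, adjusted p = 0.857). The regions were kept for a peak in at least 2 of these same replicates, which bounds the shares by construction. The comparison is therefore a description of the kept regions. Of the regions with a peak in 3 replicates, 49 of 69 on chromosome 20 and 36 of 63 on chromosome 22 lacked replicate 4. Without replicate 4 both chromosomes had 188 recurrent regions and 63.3% of them in all 3 remaining replicates, so the mean difference was 0.

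**Figure D3:**
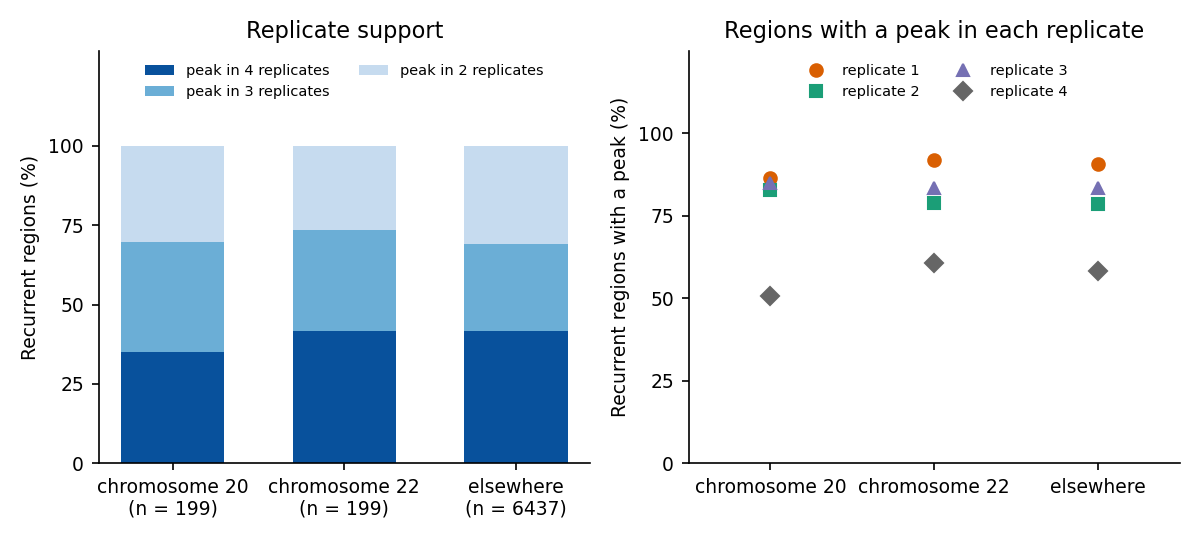
Left, the share of recurrent G4 regions (%) with a peak in 2, 3 or 4 replicates on chromosome 20, chromosome 22 and elsewhere. Right, the share of these regions (%) with a peak in each replicate; replicate 4 is lowest in all 3 columns, at 50.8% on chromosome 20, 60.8% on chromosome 22 and 58.1% elsewhere.

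Among regions with a peak in only 2 replicates, pairs with replicate 4 were few. On chromosome 20, 17 regions were shared by replicates 1 and 2, 16 by 1 and 3, and 16 by 2 and 3, while pairs with replicate 4 gave 7, 3 and 1. On chromosome 22 replicates 1 and 3 shared 19, 1 and 2 shared 16 and 2 and 3 shared 7, and pairs with replicate 4 gave 8, 1 and 2.

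Regions seen in more replicates were also higher and wider. The highest fold enrichment of a region, the authors' ratio of the signal at the summit over its local background, had a median of 5.53, 7.38, 8.88 and 12.7 on chromosome 20 for regions with a peak in 1, 2, 3 and 4 replicates. On chromosome 22 the medians were 5.60, 6.99, 8.28 and 13.4. Median widths rose in the same order, from 315 to 572 bp on chromosome 20 and from 299 to 602 bp on chromosome 22. A maximum over more peaks and a union of more peaks are larger by construction, so this order is a description. Where all 4 replicates had a peak, the summits lay a median of 85.5 bp apart on chromosome 20 and 91 bp on chromosome 22, and within 100 bp in 41 of 70 and 53 of 83 regions.

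The typical height of a peak was close on both chromosomes. The median fold enrichment over regions with a peak was 8.64, 7.61, 7.86 and 7.46 in replicates 1 to 4 on chromosome 20 (7.89 ± 0.525, SD, n = 4). On chromosome 22 it was 8.39, 7.53, 8.10 and 7.38 (7.85 ± 0.475, SD, n = 4). It was higher on chromosome 22 only in replicate 3, and the mean difference of chromosome 22 minus chromosome 20 was -0.04 ± 0.2 (SD; two-sided exact paired permutation test, p = 0.625, adjusted p = 0.857). The medians of the other chromosomes and contigs were 8.34, 7.81, 7.98 and 7.17, and neither chromosome differed from them in one direction in all 4 replicates (exact permutation p = 0.75 for chromosome 20 and 0.875 for chromosome 22).

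The highest peaks were more often on chromosome 22. Fold enrichment above 20 was reached by 8, 5, 5 and 0 regions of chromosome 20 in replicates 1 to 4 and by 11, 5, 7 and 1 of chromosome 22. With the mean over regions in place of the median, the values were 9.57, 8.74, 9.09 and 8.14 on chromosome 20 and 10.1, 8.89, 9.53 and 8.25 on chromosome 22. The mean was higher on chromosome 22 in 4 of 4 replicates, by 0.313 ± 0.215 (SD; same exact permutation test, p = 0.13), so the sign of the difference turned with the choice of mean or median. A mean over the 4 replicates above 15 was found in 8 regions of chromosome 20 and 13 of chromosome 22, all with a peak in all 4. A replicate without a peak counted as 0 in this mean, which by construction favours regions with a peak in all 4.

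The strongest sites were ranked by mean fold enrichment where all 4 replicates had a peak, and the 5 strongest of each chromosome all lay on the long arms. The annotation used here is of another build, so no gene is named for them, and none lay in a window of the study's list. The strongest site of chromosome 22, chr22:29279043-29279740, had a fold enrichment of 39.3, 26.7, 26.3 and 24.8 in replicates 1 to 4 (29.3 ± 6.70, SD, n = 4). Replicate 1 stood above the other 3, which were close to each other. It ranked 23 among the 2834 regions of the series with a peak in all 4 replicates.

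The strongest site of chromosome 20, chr20:49347338-49348183, had a fold enrichment of 26.7, 21.1, 24.4 and 18.5 (22.7 ± 3.65, SD, n = 4) and ranked 83. Its values lay below the top site of chromosome 22 in each replicate, but the ranges overlapped, because replicate 1 here was above replicate 4 there. The next on chromosome 20 were chr20:33463752-33464484 (19.2, 25.2, 23.9 and 17.3), chr20:32580793-32581877 (23.4, 19.97, 21.7 and 18.1) and chr20:61847393-61847917 (24.2, 19.6, 17.9 and 18.6). The first pair of these lie in the neighbouring bins from 32 to 34 Mb. Means of the sites at ranks 2 to 4 were 21.4 ± 3.76, 20.8 ± 2.28 and 20.1 ± 2.84 (SD, n = 4), so their order was within the replicate spread.

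The fifth site of chromosome 20, chr20:52210746-52211348, showed 25.3, 24.2 and 20.03 in replicates 1 to 3 and 9.27 in replicate 4 (19.7 ± 7.29, SD, n = 4). It was as high as the others in 3 replicates and far lower in the fourth. This site stood alone, next to a stretch of 2.72 Mb without a recurrent region. The sixth region of chromosome 20 had a mean of 17.9 ± 6.56 (SD, n = 4), within the spread of the fifth.

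On chromosome 22 the second site, chr22:41985715-41986405, showed 31.7, 21.1, 32.5 and 16.7 (25.5 ± 7.85, SD, n = 4), with replicates 1 and 3 above 2 and 4. It lies in the bin from 41 to 42 Mb, one of the pair with the most regions. The third, chr22:50946003-50946803, showed 28.3, 30.1, 25.2 and 15.1 (24.7 ± 6.69, SD, n = 4) and lies in the other. The fourth, chr22:46431488-46432191, showed 29.0 in replicate 1 and 18.9, 18.6 and 17.0 in the others (20.9 ± 5.49, SD, n = 4). The fifth, chr22:30685384-30685989, showed 22.6, 20.9, 20.9 and 12.8 (19.3 ± 4.43, SD, n = 4), close to the sixth at 19.0 ± 2.76 (SD, n = 4). Replicate 4 was the lowest of the 4 at each of these 5 sites.

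**Figure D4:**
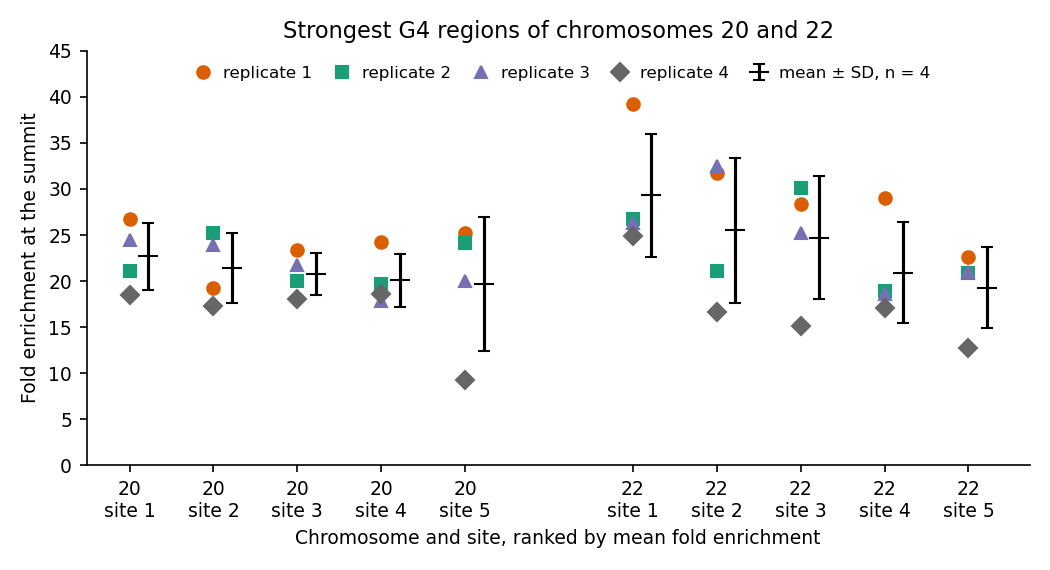
Fold enrichment at the summit (y axis) of the 5 strongest G4 regions of chromosome 20 and of chromosome 22 (x axis), with a symbol for each replicate and the mean and SD of the 4 replicates in black. Site 1 of chromosome 22 is highest with 39.3 in replicate 1, and site 5 of chromosome 20 has the widest relative spread, with 9.27 in replicate 4.

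Where all 4 replicates had a peak, fold enrichment correlated between replicates with a mean Pearson's r of 0.675 on chromosome 20 (70 regions, 0.581 to 0.781 over 6 pairs) and 0.707 on chromosome 22 (83 regions, 0.623 to 0.798). The mean was 0.784 over the 2681 such regions elsewhere. These values describe the regions of the same libraries and carry no test.

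Genes were named only through the study's list of windows on the same build, which the authors made from these samples by leaving out G4 regions known from other cell lines, so it is not independent of the peaks. Chromosome 20 had 22 windows, of which 8 (36.4%) held a recurrent region, and chromosome 22 had 43, of which 22 (51.2%) did. The other 14 and 21 windows held only regions with a peak of 1 replicate. In the other direction, 7 of the 199 regions of chromosome 20 lay in a window (3.52%, exact binomial 95% interval 1.43% to 7.11%) and 20 of the 199 of chromosome 22 (10.1%, 6.25% to 15.1%). The same shares over all listed windows and all recurrent regions of the series were not measured. Neither chromosome can therefore be called high or low by them. All 4 replicates had a peak in 1 and 4 of these, and in 69 of 192 (35.9%) and 79 of 179 (44.1%) of the regions outside the windows. In 4 of the 7 and 12 of the 20 regions, every summit lay within 250 bp of the centre of a window.

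Of all 65 listed windows on these chromosomes, 30 held a recurrent region. The groups below hold few windows each, and a region in windows of more than one group counts in each. In metabolism, transport and mitochondria, 4 of 5 windows held a recurrent region, and 2 of them one in all 4 replicates. The window of MACROD2, an enzyme that removes ADP-ribose from proteins, held the strongest region of any window on these chromosomes, chr20:13975693-13976238. Fold enrichment there was 20.1, 10.5, 9.53 and 8.41 in replicates 1 to 4 (12.1 ± 5.41, SD, n = 4), with replicate 1 far above the other 3. Relative to the window centre, on the strand of MACROD2, its summits lay at -67, -79, -90 and -34 bases, where a minus sign means before the centre. The same region also lay in the window of SEL1L2, a relative of a factor of protein quality control in the endoplasmic reticulum, so it cannot be given to one gene. Neither gene's RefSeq promoters held the motif searched.

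DDTL, a relative of D-dopachrome tautomerase, held the region chr22:24308745-24309276 with 8.51, 7.37, 9.31 and 5.37 (7.64 ± 1.71, SD, n = 4). At TSPO the region held peaks of replicates 1 and 2 only, with 5.79 and 5.60, and both summits lay 11 bases from the window centre, on either side. At SLC5A1 the peaks of replicates 1 and 4 reached 6.22 and 6.19. TSPO and SLC5A1, whose promoter stretches are printed above, thus had low peaks, each in 2 replicates. MIEF1 held a peak of 1 replicate.

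Of 3 windows of ubiquitin and protein quality genes, those of UBE2L3 and SEL1L2 held a region in all 4 replicates. UBE2L3 encodes a ubiquitin-conjugating enzyme, and its window held chr22:21904728-21905418 with 5.47, 13.6, 4.66 and 7.23 (7.74 ± 4.05, SD, n = 4), replicate 2 being the highest. This region also lay in the window of RIMBP3C. The centre of that window was nearer (564 to 749 bases from the summits) than that of UBE2L3 (1265 to 1450 bases). The region therefore cannot be given to one gene. Among the duplicated copies, RIMBP3B held chr22:21737986-21738612 with 9.09, 10.7, 7.49 and 6.43 (8.41 ± 1.85, SD, n = 4). RIMBP3 held a region of 3 replicates with 5.47, 7.61 and 5.39 in replicates 1 to 3. The identical motif stretches of RIMBP3 and RIMBP3C shown above belong to copies between which reads may be split, so these values are uncertain. RIMBP3B is a further copy, and the splitting of reads was not tested for any of them. CECR7 was the last window with a region in all 4 replicates, chr22:17517925-17518335, with 7.30, 8.96, 7.07 and 6.46 (7.45 ± 1.07, SD, n = 4).

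In transcription and chromatin, 3 of 4 windows held a recurrent region and none had all 4 replicates. TFAP2C, a transcription factor of the AP-2 family, held a pair of regions, one with 6.59, 6.07 and 7.38 in replicates 1, 3 and 4 and one with 8.65 and 9.53 in replicates 1 and 4. SCRT2, a zinc finger repressor of neural cells, held a region with 6.50, 6.05 and 6.70 in replicates 1 to 3. That region also lay in the window of a clone-named transcript, whose centre was nearer (36 to 139 bases from the summits) than that of SCRT2 (415 to 518 bases), so it cannot be given to one gene. H1F0, a linker histone, held one with 6.86 and 7.82 in replicates 1 and 3. In each of the 3 windows at least one replicate had no peak.

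Of 7 windows of signalling and receptor genes, 3 held a recurrent region. WNT7B, a secreted Wnt ligand, held chr22:46372887-46373320 with 11.9, 8.24 and 7.31 in replicates 1, 3 and 4 and no peak in replicate 2, and a second region with 5.92 and 6.04 in replicates 1 and 4. Both regions also lay in the window of CR536603.1. KCNG1, a modifier subunit of potassium channels, held one with 6.71, 7.78 and 8.90 in replicates 1 to 3. LRP5L held one in replicates 1 and 3 with 5.73 and 6.67. The windows of SIRPA, PLCB4, RASD2 and ELFN2 held a peak of 1 replicate only.

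In cilia, cytoskeleton and membrane traffic, 3 of 5 windows held a recurrent region. IFT27, a small GTPase of transport in cilia, showed 7.06, 6.13 and 6.67 in replicates 1 to 3, and UPK3A, a membrane protein of the urothelium, showed 8.51, 6.12 and 9.98. MICALL1 showed 5.30 and 6.17 in replicates 1 and 2. In RNA binding and processing, 1 of 3 windows did, that of ZC3H7B, with 5.50, 8.84 and 4.24 in replicates 1, 3 and 4. Summits of replicates 1 and 3 lay 1 and 6 bases from its window centre, while that of replicate 4 lay at -385 bases.

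Both windows of mitochondrial-like genes, MTND1P9 and MTRNR2L3, held the same single peak, of replicate 4 only. The 32 windows outside these groups, 11 of them with a recurrent region, were mostly clone-named transcripts, with a few small RNAs, pseudogenes and named genes such as WFDC2, CCDC117 and CECR7. Among the 11 was LDOC1L, with 16.1 in replicate 1 and 7.27 in replicate 2 and no peak in the others. Its value in replicate 1 was the highest of any region with a peak in only 2 replicates on these chromosomes.

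**Figure D5:**
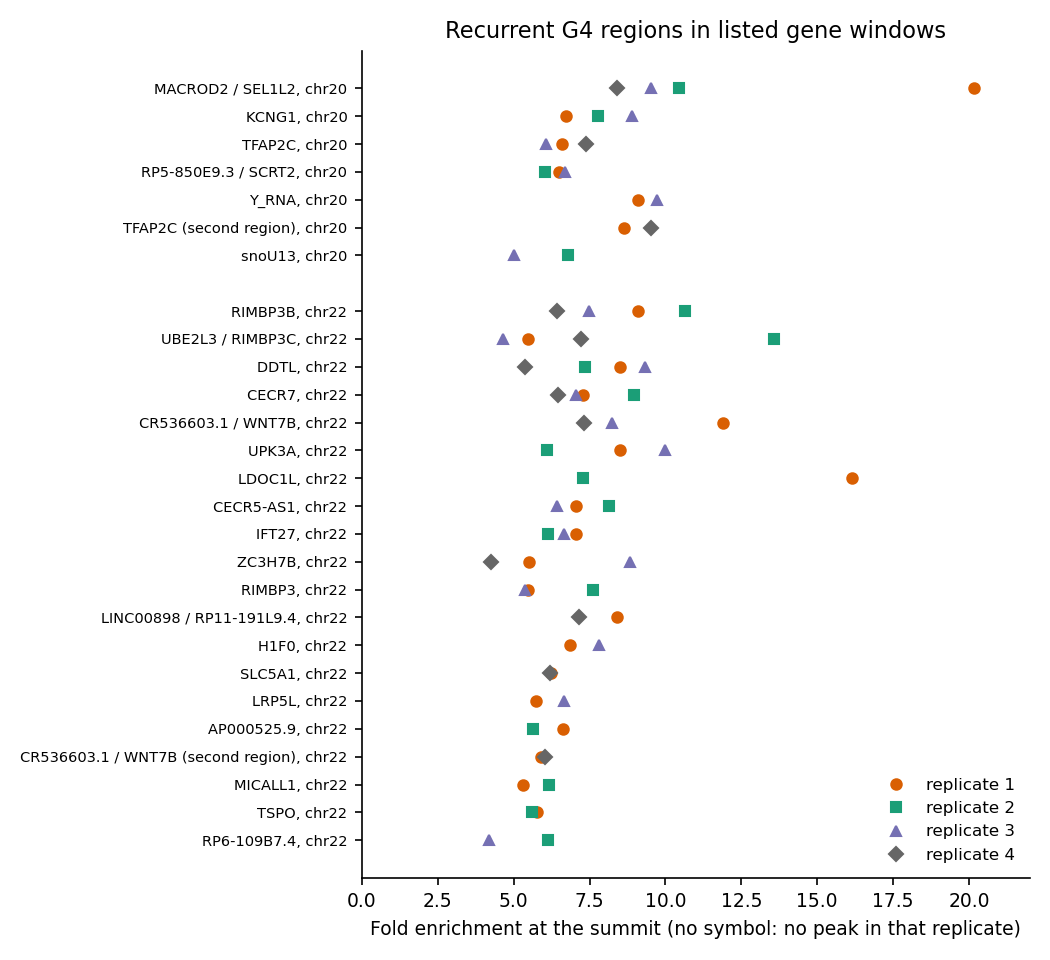
Fold enrichment at the summit (x axis) in each replicate for the recurrent regions of chromosomes 20 and 22 that lie in a window of the study's list (y axis, genes), with no symbol where a replicate had no peak. MACROD2 and SEL1L2 share the highest region (20.1 in replicate 1), and most other values lie below 10.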

How the data were processed

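According to the methods, chromatin of C4-2 cells was immunoprecipitated with BG4 and sequenced, reads were aligned with Bowtie2 and peaks were called with MACS2. The submitters' processing notes name bcl2fastq 1.8.4, Bowtie2 2.2.5, SAMtools 1.11, MACS2 2.1.1 and hg19, while the methods name hg38. The deposited positions were taken as GRCh37. The options, the treatment of duplicates and the use of a control are not given in the sources used here. Each replicate has 1 deposited peak list, and the input library was not analysed here. The deposited fold enrichment is the authors' ratio over local background at the summit. Beside it the authors deposited the −log10 of each p-value and q-value. The deposited score was not used. No read counts are held, so depth is unknown, and intervals are exact binomial at 95% and cover counting error only.

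The members and gene lists were chosen with earlier results of these data known. A replicate's value in a region was its highest peak, and 0 where it had none in a mean over replicates. Arms were divided at 28 Mb on chromosome 20 and 15 Mb on chromosome 22, where 0 peaks cross. Bins of 1 Mb started at the first base. Differences were tested over the 4 replicates, paired by replicate, with two-sided exact permutation of signs, adjusted by Benjamini-Hochberg over 8 comparisons, of which 4 with the rest of the series were added after the data were seen. No test between conditions was possible. Named were the 5 strongest regions of each chromosome and every listed window with a region in all 4 replicates, and the other windows by group. The steps were run on 600 simulated sites and 9 of 9 quantities were recovered, which checks the code only. Recurrent regions on chromosome 20 lay as little as 252 bp apart, and the merging of such close neighbours cannot be judged from this check. Alternatives were other peak thresholds, overlaps, numbers of replicates, bins and lengths, and each replicate left out. Tools were Python 3.11.15, with pandas 2.3.3, numpy 2.4.6, matplotlib 3.10.9 and scipy 1.17.1.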

Additional observations from a re-analysis of the deposited data

Results flagged for a closer look

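Dixon's ratio test at the 95% level was applied to 24 measures with 4 replicates each. Chance alone marks about 1 in 20 of measures that were not chosen by their values. The strongest sites were chosen by their mean fold enrichment, which a single high replicate raises, so this rate does not hold for them. The test marked 3 of the 24 measures. The share of regions of chromosome 20 with a peak in replicate 4 was 50.8%, far below the other 3 replicates. At the strongest site of chromosome 22, chr22:29279043-29279740, replicate 1 reached a fold enrichment of 39.3, above the other 3 replicates. At the fourth site of chromosome 22, chr22:46431488-46432191, replicate 1 reached 29.0, again above the other 3.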

How the results depend on the processing

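Both density ratios stayed above 1 in each alternative run. Values that moved by over 1.5 times or by over their spread follow. With the 3000 strongest peaks per replicate, chromosome 20 and chromosome 22 had 99 and 94 recurrent regions, 9.09% and 2.13% of them within 10 kb of another, at most 9 and 9 per bin, 48.9% in all 4 replicates on chromosome 22, and a ratio of 20q to 20p of 2.08. With a peak of at least 3 replicates required, the share within 10 kb was 12.2% and 11.6% and the fullest bin of chromosome 20 held 10. With all 4 required, 70 and 83 regions remained, 8.57% and 4.82% within 10 kb, with at most 6 and 8 per bin, and the ratio of chromosome 22 to chromosome 20 was 2.00. Measured to the last peak the ratio was 1.23. By −log10 p, the strongest site of chromosome 20 was chr20:33463752-33464484, with a mean of 53.2. The fold enrichment difference of chromosome 22 minus chromosome 20 turned positive with the mean in place of the median (0.313), without replicate 1 (0.139) and without replicate 4 (0.0026), and the cause was not tested.

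With each replicate left out in turn, recurrent regions numbered 159 to 188 on chromosome 20 and 155 to 188 on chromosome 22. The share in all remaining replicates was 44.0% to 63.3% and 52.3% to 63.3%, which is higher because fewer replicates were required. The share within 10 kb was 13.5% to 17.0% and 11.0% to 18.3%, the fullest bin held 13 to 14 and 14 to 18, and the strongest site reached 22.1 to 24.1 and 26.0 to 30.8. The ratio of 20q to 20p was 1.49 to 1.76 and that of chromosome 22 to chromosome 20 was 1.65 to 1.81. Peak density differences were 1.21 to 1.53 and 2.02 to 2.46 per Mb, the detection difference 0 to 2.997 percentage points and the fold enrichment difference -0.13 to 0.139. Without replicate 1 the strongest site of chromosome 20 was chr20:33463752-33464484, at 22.1. No paired analysis between sample groups was possible, since 1 group alone has peak lists. The paired tests compared chromosomes, arms and the rest of the series within each replicate. The unknown depth limits what the lower peak number of replicate 4 shows.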
